A study of Mus musculus with 6 samples.

Results

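The genes of the myosin light chains were followed in mouse embryonic stem (ES) cells and in muscle cells made from them. The 10 members were chosen by gene symbol, as the essential chains Myl1, Myl3, Myl4, Myl6 and Myl6b, the regulatory chains Myl2, Myl7, Myl9 and Mylpf, and Mylk, a kinase that phosphorylates regulatory chains. They are 10 of the 22180 genes measured, and each was represented by 1 probe set. The study compared 3 arrays of undifferentiated, pluripotent ES cells with 3 arrays of Pax7-GFP cells, which were sorted by flow cytometry on GFP driven by a Pax7 reporter once the cultures had undergone 3 weeks of myogenic differentiation. The differentiated cells derive from mouse ES reporter lines, whose number and strain the labels do not state, and the gate was set on undifferentiated cultures. The question of the comparison is what sets the sorted cells apart from undifferentiated ones.

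A myosin motor is built from heavy chains, and the lever arm of each heavy chain carries an essential and a regulatory light chain. Light chains tune how fast and how strongly the motor works, and phosphorylation of the regulatory chain starts contraction in smooth muscle and drives contractility in non-muscle cells. Different muscles use different genes for these parts. Fast skeletal fibres use Myl1 and Mylpf, slow fibres and the heart ventricle use Myl2 and Myl3, and the atrium uses Myl4 and Myl7. Myl4 is also used by embryonic skeletal muscle, while Myl6, Myl6b and Myl9 serve smooth muscle and non-muscle cells, with Myl6b also found in slow skeletal muscle.

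The labels were checked with defining genes. Pax7 went from 5.70 ± 0.073 in ES cells to 10.90 ± 0.25 in Pax7-GFP cells and Nanog, a core pluripotency factor, from 12.02 ± 0.072 to 5.13 ± 0.15 (log2 signal, SD, n = 3 each). Sorting on the Pax7 reporter favours the first of these by design. The differentiation factor Myog reached 11.37 ± 0.27 (SD, n = 3) in Pax7-GFP cells, so the sorted cells as a population carried transcripts of differentiating muscle. Of 7 genes of muscle progenitors and differentiating muscle, 7 were higher, and of 4 pluripotency genes, 4 were lower. Array medians lay between 5.61 and 5.69 on the log2 scale. Detection calls were not part of the data, so a signal close to that range can be read neither as present nor as absent.

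Of the 10 members, 3 rose, 2 fell and 5 were not called. Myl1, Myl4 and Myl9 rose in Pax7-GFP cells, and Mylpf and Myl7 fell. A call required a limma adjusted p under 0.05 (Benjamini-Hochberg over all genes) and at least a 2-fold difference, that is a log2 difference of 1. By that rule 7.34% of all genes were called higher and 7.15% called lower. Passing the adjusted p alone was frequent in this comparison, at 41.1% of all genes, and 6 of the 10 members passed it, the 5 called ones and Myl6b. The same 6 were the members whose ES and Pax7-GFP arrays did not overlap, against 51.9% of all genes. The median log2 difference was 0.21 over the members and 0.024 over all genes. With both directions present among the members, that median describes no shared movement. Since each array measured RNA of many cells, fewer cells carrying a transcript and less of it per cell cannot be told apart.

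**Figure D1:**
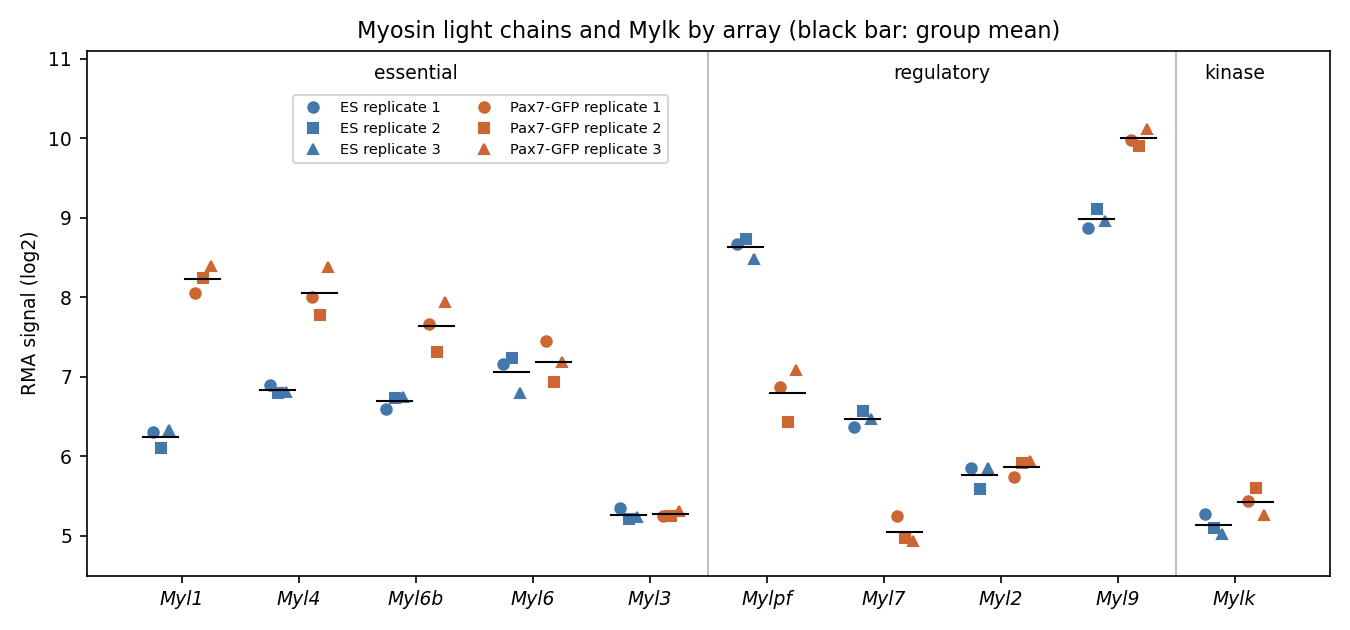
Log2 RMA signal of each member in the 3 ES arrays (blue) and the 3 Pax7-GFP arrays (orange), with marker shapes for the replicate number and a black bar for the group mean. Myl1, Myl4, Myl6b and Myl9 sit higher in every Pax7-GFP array than in any ES array, Mylpf and Myl7 lower, and the other members overlap. Heights of different genes come from different probe sets and are not comparable.

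Myl1 and Mylpf, which form the pair of light chains of fast fibres, moved in opposite directions. The stretches before their starts are shown because both hold CAGCTG, the form of the E box (CANNTG) that muscle determination factors are known to favour. Myl7 and Myl9 are shown with them because these regulatory chains also moved in opposite directions and both hold a CArG box, the element bound by the serum response factor. Each is the 250 bases before the gene's start in the RefSeq promoter table, build GRCm38.p6, written 5' to 3' on the gene's strand, with the matches in capitals.
Mylpf (chr7:127211358-127211607, plus strand): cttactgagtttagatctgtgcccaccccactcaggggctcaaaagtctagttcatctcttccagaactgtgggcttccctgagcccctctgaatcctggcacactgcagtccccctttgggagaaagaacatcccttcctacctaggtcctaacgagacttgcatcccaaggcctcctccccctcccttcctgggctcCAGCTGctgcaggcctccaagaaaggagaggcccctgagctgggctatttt
Myl1 (chr1:66945057-66945306, minus strand): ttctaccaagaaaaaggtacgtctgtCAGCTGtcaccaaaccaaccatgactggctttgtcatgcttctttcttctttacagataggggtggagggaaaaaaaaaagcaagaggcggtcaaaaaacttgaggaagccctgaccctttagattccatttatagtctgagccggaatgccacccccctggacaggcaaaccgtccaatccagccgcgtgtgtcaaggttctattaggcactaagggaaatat
Myl7 (chr11:5898783-5899032, minus strand): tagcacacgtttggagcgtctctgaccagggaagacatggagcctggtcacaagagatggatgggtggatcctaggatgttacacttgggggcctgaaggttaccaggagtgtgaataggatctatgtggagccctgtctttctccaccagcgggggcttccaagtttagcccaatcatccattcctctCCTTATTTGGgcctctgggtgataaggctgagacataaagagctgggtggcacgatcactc
Myl9 (chr2:156775214-156775463, plus strand): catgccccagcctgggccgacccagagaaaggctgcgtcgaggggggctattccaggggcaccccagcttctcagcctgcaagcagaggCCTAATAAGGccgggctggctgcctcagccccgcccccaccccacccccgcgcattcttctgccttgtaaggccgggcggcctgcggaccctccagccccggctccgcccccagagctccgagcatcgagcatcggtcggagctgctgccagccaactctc
The matches lie 51 to 46 bases before the start in Mylpf, 224 to 219 in Myl1, 61 to 52 in Myl7 and 161 to 152 in Myl9. All 10 members had an entry, with 12 starts in all. On both strands, CAGCTG was found at 3 of the 12 starts and at 13.0% of the 32851 starts in the table, and the CArG box at 4 of 12 and at 1.47%. CANNTG, which includes CAGCTG, was found at 8 of 12 and at 66.2%, and the MEF2 site at 0 of 12 and at 2.92%. The other CAGCTG match was at a start of Myl2, and the other CArG boxes were at Myl3 and at a start of Myl6, genes that were not called. The start of Myl4, which rose, held none of these letters. CAGCTG and the CArG box thus each stood before a member that rose, a member that fell and a member that was not called, and whether any match is used in these cells was not tested.

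Among the essential chains 2 of 5 rose, 0 fell and 3 were not called. Myl1 encodes the fast skeletal essential chain in a long and a short form from separate starts, which 1 probe set need not separate. Its log2 signal was 6.31, 6.11 and 6.33 in the ES arrays and 8.05, 8.25 and 8.39 in the Pax7-GFP arrays. The lowest Pax7-GFP array stood far above the highest ES array. Myl1 had the largest rise of the members, 1.98 on the log2 scale (SE 0.11, limma adjusted p = 2.95e-06) or 3.95-fold. It kept its call under each of 18 alternative settings, including the test against a 2-fold difference.

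Myl4, the essential chain of atrium and embryonic muscle, read 6.89, 6.80 and 6.80 in ES arrays and 8.00, 7.78 and 8.38 in Pax7-GFP arrays. The ES arrays lay close together, whereas the Pax7-GFP arrays spread more widely (SD 0.053 and 0.30). The rise was 1.22 (SE 0.15, limma adjusted p = 0.000212), a 2.33-fold difference whose 95% confidence interval, 0.89 to 1.55 on the log2 scale, includes differences under 2-fold. It was called in every setting run except the test against a 2-fold difference. Myl6b, the chain of slow skeletal and non-muscle cells, read 6.59, 6.74 and 6.74 against 7.66, 7.32 and 7.94. Its groups did not overlap, and its difference of 0.95 (SE 0.15, limma adjusted p = 0.00108) fell just short of 2-fold. Myl6b was called with array weights, at 1.02, and without Pax7-GFP replicate 2, at 1.11.

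Myl6 lies beside Myl6b in the genome and encodes the essential chain of smooth muscle and non-muscle myosin. It read 7.17, 7.23 and 6.80 in ES arrays and 7.45, 6.93 and 7.19 in Pax7-GFP arrays. The groups overlapped, and the difference of 0.13 had a 95% interval of -0.24 to 0.49 (limma adjusted p = 0.595). Myl3, the ventricular and slow chain, read 5.35, 5.21 and 5.24 against 5.24, 5.26 and 5.31, below the array medians throughout. Its difference was 0.0029 with a 95% interval of -0.18 to 0.19 (limma adjusted p = 0.984). Rises to 2-fold lie outside both intervals, within the limits of a signal near background for Myl3.

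Among the regulatory chains 1 of 4 rose, 2 fell and 1 was not called. Mylpf, the fast skeletal regulatory chain, read 8.67, 8.74 and 8.48 in ES arrays and 6.87, 6.44 and 7.09 in Pax7-GFP arrays. Every Pax7-GFP array lay below every ES array, and replicate 2 was the lowest. The difference was -1.83 (SE 0.16, limma adjusted p = 3.85e-05), 3.55-fold lower in Pax7-GFP cells. It kept its call under each of 18 alternative settings, with values between -1.97 and -1.65.

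Mylpf was not alone in falling. Myl7, the atrial regulatory chain, read 6.37, 6.57 and 6.47 in ES arrays and 5.25, 4.97 and 4.94 in Pax7-GFP arrays. All Pax7-GFP arrays of Myl7 lay below the array medians. The difference was -1.42 (SE 0.11, limma adjusted p = 1.64e-05), 2.67-fold lower. Myl7 kept its call under the 17 settings that could test it.

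Myl9, the regulatory chain of smooth muscle and non-muscle myosin, read 8.88, 9.11 and 8.95 in ES arrays and 9.98, 9.90 and 10.12 in Pax7-GFP arrays. The groups stood apart, with a spread among arrays much smaller than the difference. The rise was 1.02 (SE 0.098, limma adjusted p = 6.34e-05), which sits at the 2-fold limit. It was 0.97 without ES replicate 1, 0.96 without Pax7-GFP replicate 3 and 0.996 with each array centred on its median, and was not called in these 3 settings or in the test against a 2-fold difference. Myl2, the ventricular and slow regulatory chain, read 5.86, 5.59 and 5.85 against 5.74, 5.91 and 5.94. Its groups overlapped, and the difference was 0.099 with a 95% interval of -0.14 to 0.34 (limma adjusted p = 0.518).

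Mylk, the kinase of smooth muscle and non-muscle regulatory chains, read 5.27, 5.10 and 5.03 in ES arrays and 5.43, 5.60 and 5.26 in Pax7-GFP arrays. Pax7-GFP replicate 3 lay below ES replicate 1, so the groups overlapped at signals under the array medians. The difference was 0.30 (SE 0.11, limma adjusted p = 0.0686), and it was not called. Its 95% interval ran from 0.037 to 0.56.

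**Figure D2:**
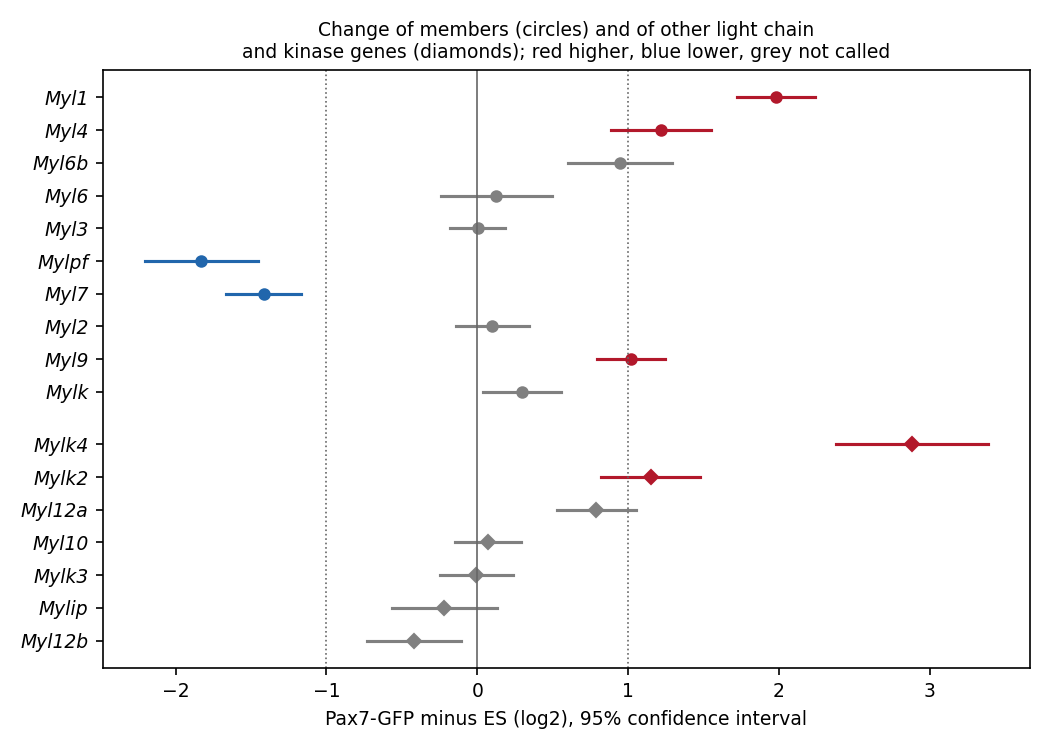
Log2 difference, Pax7-GFP minus ES, with its 95% confidence interval for the 10 members (circles) and for 7 other genes (diamonds). The 7 are light chains, light chain kinases and Mylip, which is neither. Dotted lines mark a 2-fold difference. Mylpf and Myl7 are the 2 genes on the left of the lower dotted line, while Mylk4, at 2.88, is the farthest to the right.

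The fall of Mylpf was set against the change of each other member within the same arrays. Mylpf was singled out for its fall, the largest of the members, so every difference below is negative by that choice. Overlap and p-values of the pairs therefore describe them and give no separate support. The change of Mylpf minus that of Myl1 was -3.81, minus that of Myl4 -3.05, minus that of Myl9 -2.85 and minus that of Myl6b -2.78 on the log2 scale. Against the 4 members that were neither called nor past the adjusted p it was -2.13 for Mylk, -1.96 for Myl6, -1.93 for Myl2 and -1.83 for Myl3. In these 8 of 9 pairs the within-array differences did not overlap between groups. The share of all gene pairs without overlap was not computed. The two-sided exact permutation test gave p = 0.10 for each of the 8, which is the smallest that 3 arrays against 3 allow, and 0.1125 after adjustment over the 9 pairs, so this permutation test cannot reach 0.05. Against Myl7 the difference was -0.41, the groups overlapped, and the exact permutation test gave p = 0.20 (also 0.20 adjusted). At this number of arrays the test could not distinguish the change of Mylpf from that of Myl7 or of any other member. That does not show that the changes are equal.

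In the RefSeq gene table, Mylpf overlaps Septin1, which encodes a septin, a cytoskeletal GTPase. Septin1, named after its values were seen, read 9.66, 9.67 and 9.81 in ES arrays and 5.96, 6.36 and 6.09 in Pax7-GFP arrays. It was therefore high in ES cells and changed by -3.58 (SE 0.12, limma adjusted p = 1.35e-07), a larger fall than that of Mylpf. On the other side, Tbc1d10b stood at -0.73 (SE 0.11, limma adjusted p = 0.000903), short of 2-fold, and the next gene beyond Septin1, the non-coding Gm4532, at -0.28 (SE 0.092, limma adjusted p = 0.0377). Within the Pax7-GFP arrays the orders differed, with replicate 2 lowest for Mylpf and highest for Septin1. These orders rest on few arrays, in which Septin1 lay near the array medians, so they are a description only. They do not bear on the ES arrays, where Septin1 was high. Whether transcripts of Septin1 contribute to the Mylpf probe set was not tested, since the files do not give the positions of the probes. Of the other members that overlap a measured gene, Myl4 overlaps Cdc27, which stood at 0.014, Myl2 overlaps Ccdc63, at -0.34, and Mylk overlaps the non-coding 1700119H24Rik, at 0.060, and E130310I04Rik, at 0.12, and none of these 4 genes was called.

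**Figure D3:**
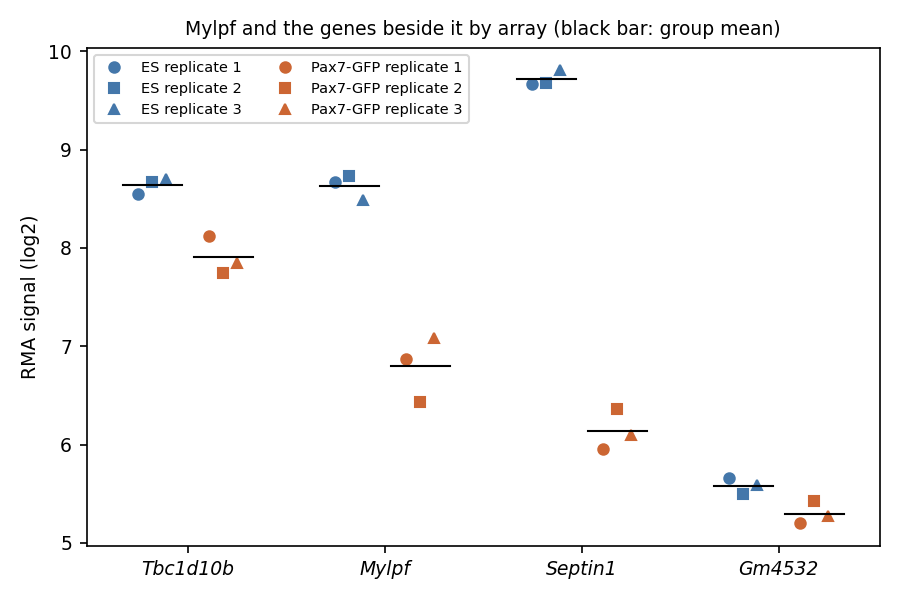
Log2 RMA signal of Mylpf, of Septin1, which overlaps it, and of the neighbouring genes Tbc1d10b and Gm4532, in the 3 ES arrays (blue) and the 3 Pax7-GFP arrays (orange), with black bars for group means. Mylpf and Septin1 are both lower in every Pax7-GFP array, with log2 differences of -3.58 for Septin1 and -1.83 for Mylpf; heights of different genes are not comparable.

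The Pax7-GFP arrays differed among themselves, but not in the same order for every member. Replicate 3 was the highest of the Pax7-GFP arrays for 7 of the 10 members, and replicate 2 the lowest for 5, namely Myl4, Myl6, Myl6b, Myl9 and Mylpf. Replicate 1 was the lowest for Myl1, Myl2 and Myl3, and replicate 3 for Myl7 and Mylk. Among ES arrays no replicate was highest for more than 4 members. The SD over Pax7-GFP arrays was 0.33 for Mylpf alone, and for its within-array difference from each of the 9 other members it ranged from 0.048, for Myl6b, to 0.50, for Mylk. With 3 arrays, and without the same counts over all genes, this is a description only.

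Other light chain genes and kinases were measured through a list of 8, of which 7 had a probe set. Among the 7 was Mylip, at -0.22, which encodes neither a light chain nor a light chain kinase. In that list 2 rose and 0 fell, with a median of 0.071. The counts of this list and of those below stand beside 7.34% of all genes called higher and 7.15% called lower. Both were kinases. Mylk4, a kinase family member of striated muscle, read 4.83, 4.96 and 4.71 in ES arrays and 7.62, 7.28 and 8.25 in Pax7-GFP arrays, a rise of 2.88 (SE 0.22, limma adjusted p = 1.56e-05). Mylk2, the skeletal muscle kinase of the regulatory chain, rose by 1.15 (SE 0.14, limma adjusted p = 0.000275) and stood at 0.98 without Pax7-GFP replicate 3, below 2-fold. The cardiac kinase Mylk3 stood at -0.0047. Thus the skeletal kinase genes were called higher, while Mylk was not, and the difference between these changes was not tested. The non-muscle regulatory chains Myl12a and Myl12b stood at 0.79 and -0.42. A second, dimmer probe set of Myl12a changed by 1.84. A probe set that carries the symbols of both Myl12a and Myl12b, brighter than these, changed by 0.40. The probe sets of Myl12a thus disagreed on whether it passed 2-fold.

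Of 21 genes that control phosphorylation of the regulatory chain (among them calmodulins, myosin phosphatase subunits and death-associated kinases), 16 were measured under a single symbol. In this list 3 rose, 0 fell and 13 were not called, with a median of 0.41. The largest rises were those of the death-associated kinases Dapk2, by 2.61 (SE 0.086, limma adjusted p = 1.46e-07), and Dapk1, by 1.35 (SE 0.14, limma adjusted p = 8.42e-05). The other genes of the list, among them the 3 calmodulin genes, were not analysed here.

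The heavy chains that carry light chains were measured as 2 lists. Of 10 sarcomeric heavy chains 3 rose, 0 fell and 7 were not called, with a median of 0.16, led by the perinatal Myh8, by 2.87 (SE 0.27), and the embryonic Myh3, by 2.47 (SE 0.32; limma adjusted p = 5.11e-05 and 0.000331). A second probe set of Myh8 stood at 0.17, and heavy chains share sequence, so probe sets may not separate them. Of 4 non-muscle and smooth muscle heavy chains 1 rose, Myh10, by 1.24 (SE 0.15, limma adjusted p = 0.000210), and 0 fell.

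Other fast fibre genes were measured beside Myl1 and Mylpf. Of 12 such genes 5 rose, 0 fell and 7 were not called, with a median of 0.86. Over all genes 7.34% were called higher and 7.15% lower, so 0 falls among 12 is near the share called lower. The largest rises were those of the calcium pump Atp2a1, by 4.70 (SE 0.22, limma adjusted p = 8.82e-07), and the Z-disc actinin Actn3, by 3.07 (SE 0.17, limma adjusted p = 2.78e-06). Of 9 slow fibre genes 4 rose, 1 fell and 4 were not called, with a median of 0.75. The slow myosin binding protein Mybpc1 rose by 4.76 (SE 0.098) and the slow troponin Tnnt1 by 3.20 (SE 0.10; limma adjusted p = 1.87e-08 and 1.21e-07). Tpm3, a tropomyosin that non-muscle cells also use, fell by 1.16 (SE 0.085, limma adjusted p = 1.27e-05), but was at -0.72, and not called, when its probe sets were averaged.

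Myl4 and Myl7 are genes of the heart atrium as well, and markers of heart cells were measured beside them. Of 10 cardiac markers 0 rose and 3 fell, with a median of -0.10. Over all genes 7.34% were called higher and 7.15% lower. The mean log2 signal of the markers per array was 6.23 to 6.29 in ES and 5.72 to 5.84 in Pax7-GFP arrays. The heart transcription factor Tbx20 fell by 2.17 (SE 0.15) and the natriuretic peptide gene Nppb fell by 1.41 (SE 0.13; limma adjusted p = 7.93e-06 and 5.48e-05). Without ES replicate 3, or without Pax7-GFP replicate 3, 2 markers fell in place of 3. The other 7 were not called, among them Gata4 at 0.039, Hand1 at 0.27, Nkx2-5 at -0.16 and Ryr2 at -0.75, named after their values were seen. Of these, Hand1 and Ryr2 passed the adjusted p alone (limma adjusted p = 0.0297 and 0.000166). Hand1 lay below the array medians throughout. The part of cardiac genes in the fall of Myl7 or the rise of Myl4 was not tested.

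Smooth muscle markers were measured beside Myl9 and Mylk. Of 9 such markers 3 rose and 1 fell, with a median of 0.36, against 7.34% of all genes called higher and 7.15% lower. The mean log2 signal of the markers per array was 7.43 to 7.58 in ES and 7.93 to 8.01 in Pax7-GFP arrays. The smooth muscle actin Acta2 rose by 1.53 (SE 0.099) and Tagln, an actin-binding protein, by 1.49 (SE 0.13), while the calponin Cnn1 fell by 2.18 (SE 0.12; limma adjusted p = 6.19e-06, 3.27e-05 and 2.83e-06). The smooth muscle heavy chain Myh11, a defining marker, was near the array medians in both groups and stood at 0.037, with a 95% interval of -0.22 to 0.30. The part of smooth muscle genes in the rise of Myl9 was not tested.

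**Figure D4:**
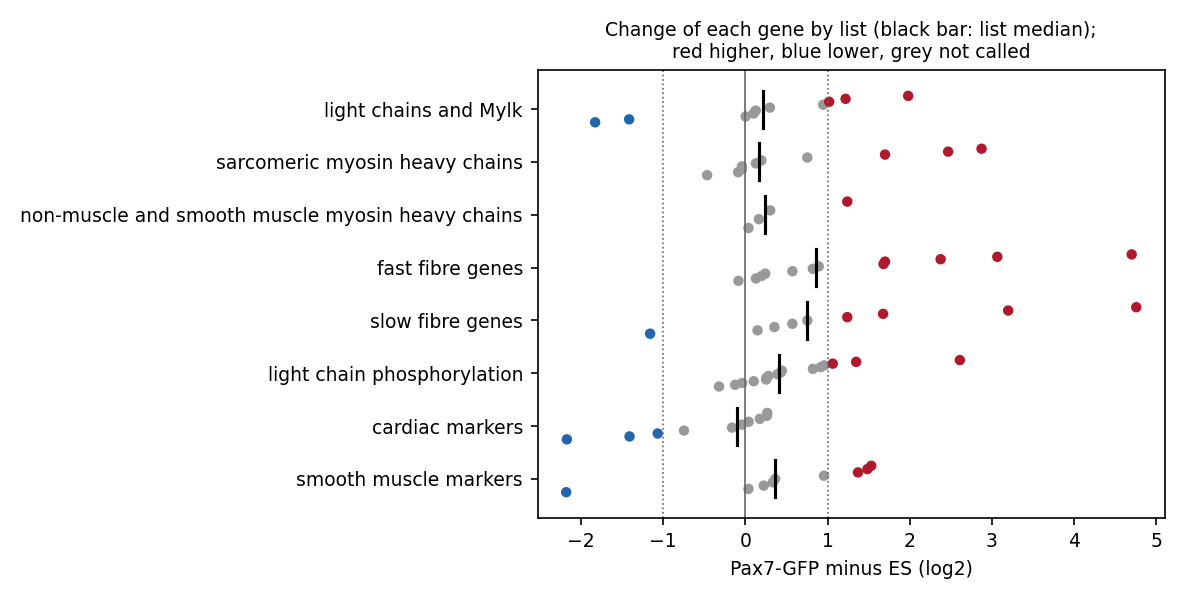
Log2 difference, Pax7-GFP minus ES, of every measured gene in each list, with a black bar for the list's median and dotted lines at a 2-fold difference. The light chains spread from -1.83 to 1.98 and stood on both sides. The sarcomeric heavy chains and the fast fibre genes had 0 called lower, against 7.15% of all genes. In lists of this size 0 is near that share. Some genes stand in more than 1 list.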

How the data were processed

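Total RNA of 6 samples was measured on single-colour arrays after a double amplification that gave biotin-labelled cRNA, per the labels' protocols. The deposited values are log2 signals made by the authors with RMA (background correction, normalization between arrays, summary per probe set) in R 2.12.1, per the submitters' processing notes. Folds are therefore of compressed signals, above all near background, and levels of different probe sets are not comparable. No scanner files were used here, and the build is not given in the sources used here.

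Of 41345 probe sets, 23521 carried 1 gene symbol in the platform annotation of 2022, 1814 several, and 16010 were unnamed here. A gene was represented by the brightest, on average, of its single-symbol probe sets (22180 genes, 1082 with several). Titles call the replicates biological, but the labels do not say whether cultures were separate, so p-values reflect only the spread among these samples. Groups were compared with limma 3.58.1 in R 4.3.3 (lmFit, eBayes, two-sided), and the fit was tested on simulated data. SE is limma's moderated one. The number of arrays limits the precision.

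The members and lists were chosen with earlier results of these data known. All members were named. From each list, up to 2 called genes with the largest rise and 2 with the largest fall were named. The lists of muscle progenitor and differentiation genes and of pluripotency genes were the exception. They were given as counts, beside Pax7, Myog and Nanog. Others (Septin1 and its neighbours, genes overlapping members, Gata4, Hand1, Mylk3, Myl12a, Myl12b and Myh11) were named after their values were seen. Alternative settings were array scaling, a floor or filter on dim signals, other ways to choose or test probe sets, other fold limits, another variance prior, weighted arrays, a block for replicate number, and leaving out each array.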

Additional observations from a re-analysis of the deposited data

How the results depend on the processing

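Direction and call were kept by Myl1 and Mylpf under 18 alternatives and by Myl7 under 17, since the filter on dim genes left Myl2, Myl3, Myl7 and Mylk untested, so that 1 member was called lower there. In the limma test against a 2-fold difference, 1713 genes and 1 higher member (Myl1) remained called, with Myl4 and Myl9 lost. Without a minimum fold 9126 genes passed. Myl3 changed sign at values close to 0, standing at -0.021 with each array centred on its median, -0.026 with quantile normalization and between -0.024 and 0.046 without single arrays. Myl6 lay between -0.0080 and 0.26 without single arrays. Centring on the median moved the median of all genes from 0.024 to 0.00073. The share of calls that were higher stayed between 48.0% and 52.8% in all settings.

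Replicate numbers gave no sign of pairing the samples. Deviations of ES and Pax7-GFP arrays of the same number correlated at -0.11, -0.22 and 0.0070 across genes. Those of unlike numbers correlated between -0.077 and 0.195. With 3 arrays per group, such correlations cannot exclude a shared preparation. With the replicate block 3 members were called higher, 2 lower and 3213 genes in all, against 3212 without it. Background correction and probe position could not be varied without scanner files.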

Other observations

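Regulators of sarcomere genes were measured as a list of 14, of which 13 had a single-symbol probe set. In this list 8 rose, 0 fell and 5 were not called, against 7.34% of all genes called higher and 7.15% lower. The list's median was 1.89 on the log2 scale. Rises of 5.16 (SE 0.10) for Myf5 and 5.09 (SE 0.17) for Myod1, both determination factors, led it (limma adjusted p = 1.87e-08 and 1.74e-07). Srf, the serum response factor that binds the CArG box, named after its values were seen, rose by 1.89 (SE 0.10, limma adjusted p = 2.68e-06). The CArG box stood before Myl9, which rose, before Myl7, which fell, and before Myl3 and a start of Myl6, which were not called. Whether Srf acts on any of these genes in these cells was not tested.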
